A study of Mus musculus with 28 samples.

Results

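The genes described here are 9 genes that mark projection neurons of cortical layer 5: the transcription factors Fezf2, Pou3f1, Bcl11b, Etv1 and Bcl6, the transcriptional cofactor Ldb2, and Crym, Pcp4 and Colgalt2. They were given as a list of names, with Colgalt2 included as the gene behind the tag, and all 9 of the 43629 genes in the count table were found and passed the filter on low counts in every fit. Every mouse carried the Glt25d2 BacTRAP transgene, in which the regulatory region of Glt25d2 (the older name of Colgalt2) drives a tag on ribosomes, so the controls carry it too. RNA was taken from the cortex before the pulldown (input) and from the immunoprecipitated tagged ribosomes (IP). The pulldown is meant to hold messages under translation in the tagged cells, but markers of other cell types were counted in IP too. The groups were healthy mice, mice in the acute phase of EAE 15 days after they were immunised with the myelin peptide MOG35-55, and mice in the chronic phase at 30 days. EAE (experimental autoimmune encephalomyelitis) is used in mice as a stand-in for multiple sclerosis. There were 5 healthy, 5 acute and 4 chronic libraries of each fraction. Age, sex and strain are not given in the labels used here, nor whether each library is a mouse of its own, so the p-values speak only of library-to-library spread, part of which may be technical.

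Layer 5 holds the neurons whose axons leave the cortex for the brainstem and spinal cord, and neurons whose axons stay within the forebrain. Fezf2 is a zinc-finger factor that directs young neurons to the subcerebral fate, and Bcl11b (Ctip2) acts downstream of it in the growth of their axons. The genes are not exclusive to these cells: Bcl11b and Etv1 are also active in some inhibitory neurons, Ldb2 in endothelial cells and Bcl6 in lymphocytes.

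For 2 of the genes whose results differ most, Fezf2 (higher in IP in every phase) and Pcp4 (not called in IP, and lower in the acute cortex), the window around the start of transcription is shown, as given by RefSeq for GRCm38.p6, 250 bases before to 50 after the start and read 5′ to 3′ along the gene. The Fezf2 window lies at chr14:12345816-12346115 on the minus strand and the Pcp4 window at chr16:96467356-96467655 on the plus strand. Capitals mark the motifs searched that were found, a GC box (GGGCGG) in Fezf2 and a CCAAT box (CCAAT, here on the opposite strand as ATTGG) in Pcp4.
Fezf2: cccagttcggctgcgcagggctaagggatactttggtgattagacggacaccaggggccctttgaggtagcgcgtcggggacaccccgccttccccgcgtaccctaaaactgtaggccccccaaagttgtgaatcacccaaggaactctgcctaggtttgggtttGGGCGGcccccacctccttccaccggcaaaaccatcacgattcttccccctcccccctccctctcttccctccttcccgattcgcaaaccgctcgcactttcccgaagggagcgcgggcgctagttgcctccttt
Pcp4: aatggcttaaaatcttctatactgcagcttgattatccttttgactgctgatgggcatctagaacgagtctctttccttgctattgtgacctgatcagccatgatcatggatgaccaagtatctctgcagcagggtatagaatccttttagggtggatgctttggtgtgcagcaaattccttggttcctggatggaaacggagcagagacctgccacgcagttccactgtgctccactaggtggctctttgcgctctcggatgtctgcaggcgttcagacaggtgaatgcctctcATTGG
The Fezf2 window was the richer in GC, with 61.3% and 20 CpG dinucleotides against 48.7% and 6 in Pcp4, where the median over 32851 mouse windows was 52.7% and 7. On either strand the GC box was in 35.7% of these windows and the CCAAT box in 37.4%, so neither match sets the gene apart. The TATA box (TATAAA, in 13.6% of windows) and the POU octamer (ATGCAAAT, in 1.74%) were not found in either window. A match is a string of letters and not a site shown to be bound. RefSeq's table held windows for 5 of the 9 genes, and none for Colgalt2, Pou3f1, Crym or Ldb2.

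Input libraries held 17848273 to 27915940 counts and IP libraries 6198088 to 21229550, and counts were found for 20714 to 21734 genes of input libraries and for 9566 to 17995 of IP libraries. The common biological coefficient of variation, the spread between libraries of a group beyond counting error, was 0.101 in input and 1.06 in IP. The genes described here were well counted in both fractions: the lowest count of any of them in any library was 185, for Pcp4 in acute IP. The spread of IP still reached them. Within a group the coefficient of variation of their levels was 16.1% to 45.5% in IP (median 23.4%) and 1.01% to 19.4% in input (median 9.53%), and it was larger in IP in 25 of 27 comparisons of the same gene and phase. Levels are CPM, read counts scaled to a common library size by the trimmed mean of M values, and log2 changes are edgeR estimates ± standard error, with p-values adjusted over all genes tested by the Benjamini-Hochberg method and a call at an adjusted p under 0.05.

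**Figure D1:**
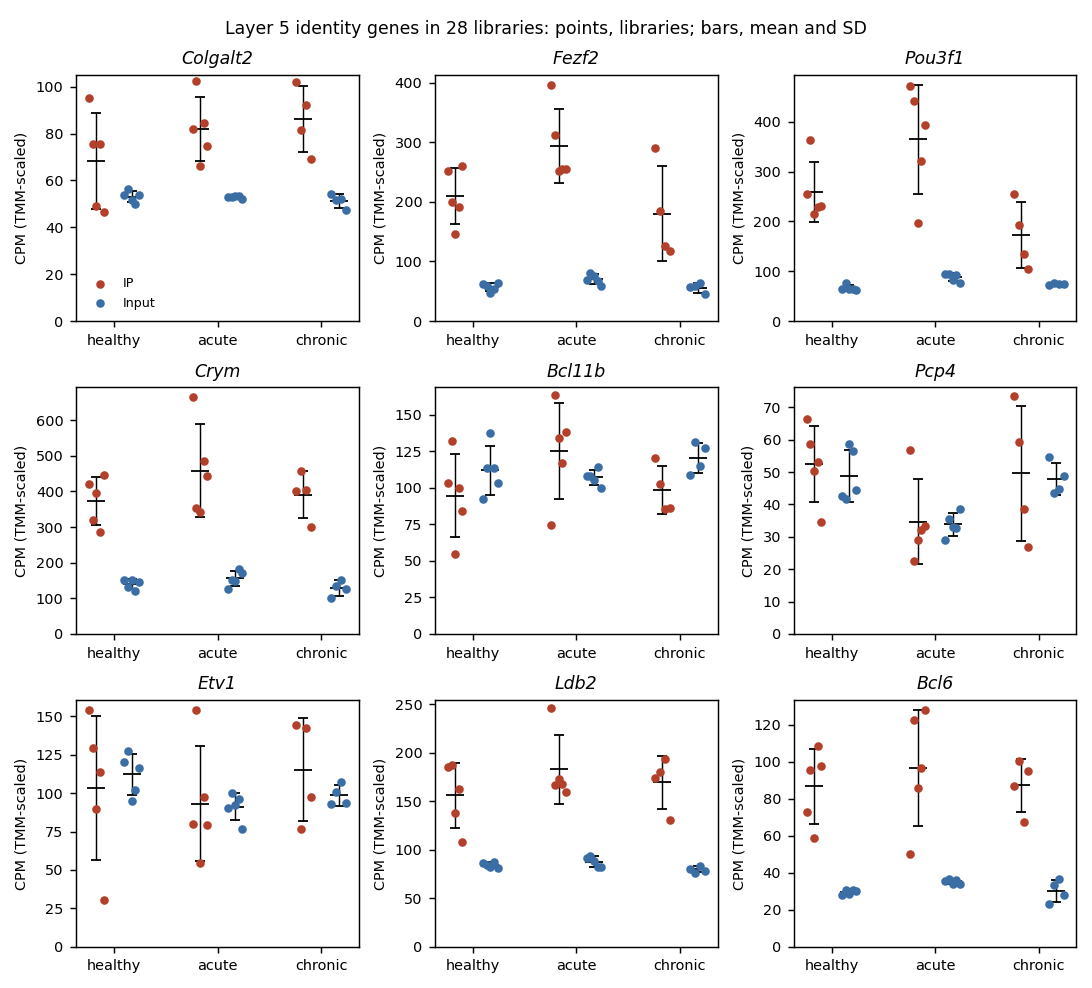
Level of each of the 9 genes in every library, in CPM on a linear axis that starts at 0, with IP in red and input in blue, and the mean and SD of each group in black. Fezf2, Pou3f1, Crym, Ldb2 and Bcl6 lie higher in IP than in input in every phase without overlap, while Bcl11b, Pcp4 and Etv1 overlap.

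The first comparison asked whether messages of these genes were more abundant on the tagged ribosomes than in the cortex they were pulled from. In healthy mice Fezf2, Pou3f1, Bcl6, Crym and Ldb2 were higher in IP, by log2 ratios of 0.89 to 1.97, and none of the 9 was lower. In that comparison 21.6% of all 16580 genes were called, 7.2% as higher and 14.4% as lower, and the median log2 ratio over all genes was -0.23 against 0.89 over these 9. The same 5 genes were higher in acute mice (18.7% of all genes called, 8.56% as higher and 10.1% as lower, median -0.36) and in chronic mice (28.7%, 8.74% and 20%, median -0.32), where Colgalt2 joined them, so that 6 of 9 were called in each. Bcl11b, Pcp4 and Etv1 were called in no phase. IP and input libraries did not overlap for the called genes, 5 in healthy, 6 in acute and 6 in chronic mice, and overlapped for the rest. Over all genes the libraries did not overlap, in either direction, for 30.3%, 31.5% and 40.2%.

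Fezf2 (chr14:12341892-12345865, minus strand, GRCm38) stood in healthy IP libraries 1 to 5 at 251, 199.7, 147, 191 and 260.3 CPM, and in healthy input at 62.5, 59.5, 47.6, 53.5 and 64.1. Every IP library was above every input library, and the log2 ratio was 1.87 ± 0.20 (n = 5 per fraction, adjusted p = 7.35e-08 by edgeR's quasi-likelihood F test). In acute mice IP held 396, 312, 251, 255 and 255 CPM and input 69.1, 80.2, 74.8, 67.6 and 58.0. The acute ratio of 2.07 ± 0.20 (adjusted p = 5.37e-09) was larger than the ratio of 99.47% of all genes tested. The 4 chronic IP libraries were more scattered, at 290.5, 184, 126 and 118 CPM against 56.3, 59.0, 64.3 and 44.7 in input, with a ratio of 1.68 ± 0.22 (adjusted p = 1.49e-06).

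Pou3f1 (chr4:124656807-124660655, plus strand), a POU-domain factor of neurons that project to the spinal cord, followed Fezf2 closely. Healthy IP libraries held 255, 363, 216, 229 and 230.2 CPM and healthy input 64.0, 77.3, 63.7, 63.7 and 62.0, a log2 ratio of 1.97 ± 0.20 (adjusted p = 4.16e-08). Replicate 2 was the highest library of both fractions. In acute mice IP ran from 196 to 471 CPM and input from 76.9 to 95.4, with a ratio of 2.05 ± 0.20 (adjusted p = 9.55e-09). In chronic mice IP held 255, 194, 135 and 105 CPM and input 72.7, 76.0, 73.9 and 74.3, and the ratio was 1.21 ± 0.22 (adjusted p = 0.000185). The gene shares 330 bases of exon with Gm2164 on the opposite strand, which the unstranded counts cannot separate, although only 176 counts were assigned to Gm2164 against 78537 to Pou3f1 over all libraries.

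Bcl6 (chr16:23965052-23988852, minus strand), a transcriptional repressor, had the lowest level of the 9 per exon length in input and was called in IP in every phase. Healthy IP libraries held 72.7, 95.5, 58.9, 109 and 97.8 CPM and healthy input 27.95, 30.8, 28.8, 30.9 and 30.0, a log2 ratio of 1.55 ± 0.20 (adjusted p = 2.24e-06). The ratio was 1.45 ± 0.20 in acute mice (IP 49.9 to 128 CPM, input 34.0 to 36.8, adjusted p = 3.28e-06) and 1.53 ± 0.23 in chronic mice (IP 67.6 to 100.2 CPM, input 23.3 to 36.6, adjusted p = 9.19e-06). The 3 ratios thus differed by less than their standard errors.

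Ldb2 (chr5:44472133-44799707, minus strand), which bridges LIM-domain transcription factors, held 186, 187, 138, 162 and 108 CPM in healthy IP and 86.6, 84.6, 81.9, 87.5 and 81.1 in healthy input. The log2 ratio was 0.89 ± 0.14 (adjusted p = 3.42e-05), and it was 1.06 ± 0.14 in acute (adjusted p = 1.44e-06) and 1.09 ± 0.16 in chronic mice (adjusted p = 5.99e-06). Markers of endothelial cells moved the same way in healthy mice: the sum of 8 markers was 48.0 to 92.2 CPM in IP and 12.5 to 24.9 in input, 1 of the 8 was called higher, and Cldn5, Flt1, Pecam1, Cdh5, Tek and Kdr were each at 0 in at least 1 healthy IP library. In acute mice the endothelial sum ran from 3.61 to 58.3 CPM in IP and from 17.9 to 24.4 in input. The median log2 ratio of the markers was 0.48, with 6 of 8 above 0. In chronic mice the sum ran from 29.7 to 65.6 CPM in IP and from 18.3 to 32.3 in input. The median there was 0.92, with 5 of 8 above 0. None of the 8 markers was called in either phase. The part of endothelial RNA in the Ldb2 ratio was not tested.

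Crym (chr7:120186380-120202111, minus strand), a binding protein for thyroid hormone and a marker of corticospinal neurons, had the highest level of the 9 per exon length in IP. Healthy IP libraries held 419, 321, 397, 286 and 446 CPM against 151, 133, 151, 120.3 and 146 in input, a log2 ratio of 1.41 ± 0.16 (adjusted p = 2.74e-07). It was 1.56 ± 0.16 in acute mice (adjusted p = 2.59e-08) and 1.61 ± 0.18 in chronic mice (adjusted p = 1.16e-07), with no overlap of the fractions in any phase.

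Colgalt2 (chr1:152399830-152510695, plus strand), a collagen galactosyltransferase whose regulatory region drives the tag, was enriched less than these 5. Its healthy IP libraries fell on both sides of the input range, at 95.009, 75.8, 49.1, 75.5 and 46.6 CPM against 54.0, 56.2, 51.7, 49.9 and 53.8, and the log2 ratio of 0.36 ± 0.16 did not pass (adjusted p = 0.130). Of the 2 healthy IP libraries that lay below input, replicate 5 was 1 of the 4 IP libraries poorest in detected genes, and without those 4 the ratio was 0.51 and was called (adjusted p = 0.00603). Replicate 5 was the only healthy library among those 4 and the lowest for Colgalt2, so leaving it out raises the ratio in any case. In all 5 fits without a single healthy replicate the ratio was not called (0.23 to 0.48, adjusted p = 0.0517 to 0.451 by edgeR). In acute mice IP held 82.0, 102, 66.0, 84.6 and 74.7 CPM and input 52.1 to 53.5 (0.63 ± 0.17, adjusted p = 0.00643), and the call was lost by a small margin without acute replicate 2 (adjusted p = 0.0504). In chronic mice IP held 102, 81.4, 92.3 and 69.1 CPM and input 47.3 to 54.1 (0.75 ± 0.19, adjusted p = 0.00295). The transgene is a separate copy of the regulatory region, and whether transgene messages were counted with the gene is not given in the sources used here.

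The remaining 3 genes are as well known in layer 5 and were not enriched. Bcl11b (chr12:107910403-108003602, minus strand) held 103, 132, 54.9, 99.7 and 83.9 CPM in healthy IP and 92.2, 114, 138, 114 and 103 in healthy input, a log2 ratio of -0.24 (95% confidence interval -0.62 to 0.13, adjusted p = 0.442). Its ratio was 0.23 ± 0.18 in acute mice (adjusted p = 0.452) and -0.29 ± 0.21 in chronic mice (adjusted p = 0.373). Without the 4 IP libraries poorest in detected genes the acute ratio was 0.50 and was called (adjusted p = 0.0380), the only one of the 3 genes to pass in any phase under an alternative that was run.

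Etv1 (chr12:38779380-38868215, plus strand), an ETS factor also called Er81, varied more between healthy IP libraries than any other of the 9. Healthy IP held 154, 129, 89.6, 114 and 30.6 CPM and healthy input 120.1, 128, 95.002, 102 and 116, so that replicate 5 alone was far below the input range and replicate 1 above it. The log2 ratio was -0.12 (interval -0.67 to 0.43, adjusted p = 0.855), and it was 0.03 ± 0.27 in acute and 0.22 ± 0.30 in chronic mice, where the sign of the acute ratio changed with the scaling. Markers of inhibitory neurons, in which both Bcl11b and Etv1 can be active, were lower in healthy IP: the sum of 8 markers was 599 to 827 CPM in IP and 957 to 1195 in input, and 2 of the 8, Gad2 and Sst, were called lower. In acute mice the sum was 615 to 952 CPM in IP and 975 to 1092 in input, with 3 of 8 called lower (10.1% of all genes). In chronic mice it was not lower, at 1009 to 1373 CPM in IP and 968 to 1055 in input. There 1 of the 8 was called higher and 1 lower (8.74% and 20% of all genes). None of the 8 was at 0 in more than 1 of the 5 healthy IP libraries, and the part of inhibitory RNA in the ratios of Bcl11b and Etv1 was not tested.

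Pcp4 (chr16:96467606-96525793, plus strand), a small calmodulin-binding protein found in layer 5 and in other cells of the brain, stood at 66.3, 58.6, 50.3, 53.2 and 34.5 CPM in healthy IP and at 42.7, 41.5, 58.6, 56.4 and 44.6 in healthy input. The ranges overlapped in every phase, and the log2 ratio was 0.11 (interval -0.39 to 0.60, adjusted p = 0.848) in healthy, 0.04 ± 0.24 in acute and 0.05 ± 0.27 in chronic mice. The intervals of all 3 healthy ratios end below the point estimates of the 5 enriched genes: the highest upper bound was 0.604, for Pcp4, against 0.89 for Ldb2. The interval of Ldb2 itself ran from 0.602 to 1.17 and so overlapped that of Pcp4, and the ratios of different genes were not tested against each other. When IP and input were matched by replicate number, which does not show a shared mouse, IP was the higher for Fezf2, Pou3f1, Crym, Ldb2 and Bcl6 in 14 of 14 pairs, for Colgalt2 in 12, for Etv1 in 9, for Bcl11b in 7 and for Pcp4 in 5.

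**Figure D2:**
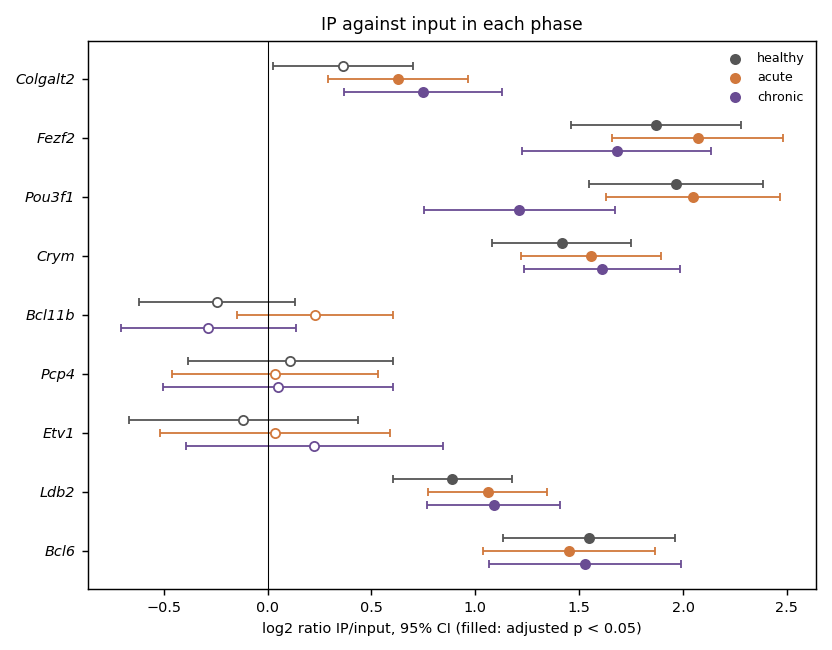
Log2 ratio of IP to input for each gene in healthy, acute and chronic mice, with 95% confidence intervals, where filled points passed an adjusted p under 0.05. Fezf2, Pou3f1, Crym and Bcl6 lie above 1 in each phase, Ldb2 at 0.89 to 1.09, and the intervals of Bcl11b, Pcp4 and Etv1 cross 0.

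The second comparison asked how the genes changed with EAE in the cortex as a whole. In input from acute mice Pou3f1 and Bcl6 rose and Pcp4 and Etv1 fell, 4 of 9, where 19.7% of all 16381 genes were called (11.1% higher, 8.59% lower). In such bulk tissue, fewer cells of a type and less RNA per cell cannot be told apart. In chronic against healthy mice edgeR called 0 of 9 (2.74% of all genes), with 2 at an unadjusted p under 0.05, Pou3f1 and Etv1, where 14.1% of all genes were, and DESeq2 also called 0. In chronic against acute mice, which uses the same acute libraries again, Pou3f1 fell and Pcp4 rose, 2 of 9 where 7.69% of all genes were called (2.95% higher, 4.74% lower). DESeq2 called 3 of 9 there, with Fezf2 lower as well, and 10.6% of all genes.

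Pou3f1 in acute input stood at 95.4, 94.5, 81.6, 92.9 and 76.9 CPM, against 64.0, 77.3, 63.7, 63.7 and 62.0 in healthy input. The lowest acute library lay just under the highest healthy one, and all others were apart, with a log2 change of 0.42 ± 0.06 (adjusted p = 0.000115). Chronic input stood at 72.7, 76.0, 73.9 and 74.3 CPM, all within the healthy range, and was lower than acute with a log2 change of -0.25 ± 0.07 (adjusted p = 0.0312). All 4 chronic libraries were below all 5 acute ones, but dropping acute replicate 1, 2 or 4 or chronic replicate 1, 2 or 3 ended the call, 6 of 9 such fits (adjusted p up to 0.0777). Against healthy input the chronic difference was 0.17 ± 0.07 (adjusted p = 0.241).

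Pcp4 moved the opposite way. Its acute input libraries held 29.1, 35.6, 33.2, 32.8 and 38.5 CPM, all below the healthy 42.7, 41.5, 58.6, 56.4 and 44.6, and the log2 change was -0.53 ± 0.11 (adjusted p = 0.00273), which put it at percentile 3.52 of all genes tested. Chronic input was back at 54.5, 43.6, 44.7 and 48.9 CPM, above every acute library (0.50 ± 0.11 against acute, adjusted p = 0.0137) and within the healthy range (-0.02 ± 0.11 against healthy, adjusted p = 0.961). Both calls held in every fit that left out 1 library. Its exons share 243 bases with Igsf5 on the same strand, to which 71 counts were assigned against 21706 to Pcp4.

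Etv1 in acute input stood at 90.1, 99.9, 92.1, 96.2 and 76.9 CPM against 120.1, 128, 95.002, 102 and 116 in healthy input. The groups overlapped, and the log2 change of -0.30 ± 0.08 passed (adjusted p = 0.0102) and held without each library in turn. In chronic input, at 92.9, 101, 107 and 93.3 CPM, the difference from healthy was -0.18 ± 0.08 (adjusted p = 0.317). Of the 8 inhibitory markers in acute input, Gad2 and Adarb2 were lower and Vip higher, while their sum ran from 975 to 1092 CPM, within the healthy range, and its part in the change of Etv1 was not tested.

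Bcl6 rose least of the called genes. Acute input held 35.6, 36.8, 34.0, 36.3 and 34.1 CPM, all above the healthy 27.95, 30.8, 28.8, 30.9 and 30.0, with a log2 change of 0.25 ± 0.09 (adjusted p = 0.0435). The call stood near the threshold and did not survive in 9 of 10 fits with a single library dropped, the exception being the fit without acute replicate 5. Chronic input was spread widely, at 23.3, 33.4, 36.6 and 27.9 CPM. Bcl6 is known from lymphocytes, and T cell markers also differed: the defining markers Cd3d and Cd3g had 0 counts in all 5 healthy input libraries and 3 to 17 counts in every acute one, and Lck was called higher. The sum of 9 T cell markers overlapped, at 8.37 to 18.9 CPM in healthy and 7.69 to 14.2 CPM in acute input, with Cd4 alone at 4.78 to 16.6 and 2.73 to 6.19 CPM. The part of T cell RNA in the change of Bcl6 was not tested.

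The other 5 genes were not called in acute input. Fezf2 came closest, at 69.1, 80.2, 74.8, 67.6 and 58.0 CPM against 62.5, 59.5, 47.6, 53.5 and 64.1 in healthy input, a log2 difference of 0.29 ± 0.10 (adjusted p = 0.0615 by edgeR and 0.0282 by DESeq2). Colgalt2 had the smallest acute difference of the 9, with 52.1 to 53.5 CPM in acute, 49.9 to 56.2 in healthy and 47.3 to 54.1 in chronic input, and its acute difference had an interval of -0.10 to 0.10. Crym (0.15 ± 0.12), Ldb2 (0.06 ± 0.05) and Bcl11b (-0.06 ± 0.09) had intervals that included 0. Microglia markers were higher in the same acute libraries, with 5 of 8 called higher and 1 lower and a sum of 104 to 161 CPM against 47.0 to 72.6 in healthy input, and 3 of 8 astrocyte markers were called higher. Their part in the changes of the 9 genes was not tested. When all 28 libraries shared 1 estimate of the spread, no gene of the 9 was called in input in any phase.

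The third comparison asked how the messages on tagged ribosomes changed with EAE. None of the 9 was called in IP in acute against healthy mice (0.0647% of all 13914 genes called), in chronic against healthy (0.187%) or in chronic against acute (0%). At an unadjusted p under 0.05 edgeR gave 0, 1 and 2 of the 9, against 6.26%, 10.7% and 8.23% of all genes. DESeq2 called 0, 0 and 1 of the 9, against 0.884%, 2.06% and 1.29% of all genes.

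The largest differences in IP were those of Pou3f1 and Fezf2 between acute and chronic mice. Pou3f1 held 471, 441, 196, 322 and 393 CPM in acute and 255, 194, 135 and 105 in chronic IP, a log2 difference of -1.08 ± 0.26 (interval -1.62 to -0.53, adjusted p = 0.192 by edgeR and 0.00683 by DESeq2). Fezf2 held 396, 312, 251, 255 and 255 CPM in acute and 290.5, 184, 126 and 118 in chronic IP, a difference of -0.71 ± 0.25 (adjusted p = 0.463 by edgeR and 0.112 by DESeq2). In both genes chronic replicate 1 lay above the lowest acute library, and the other 3 chronic libraries lay below every acute one. With all 28 libraries in 1 fit both were called (adjusted p = 0.00408 for Pou3f1 and 0.0292 for Fezf2); this fit tests 16580 genes in place of 13914 and takes the spread from both fractions.

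Chronic IP replicate 4 had the lowest level of Fezf2, Pou3f1, Crym, Ldb2, Colgalt2 and Pcp4 among the chronic IP libraries and stood apart in glial markers. Its sum of 8 oligodendrocyte markers was 3060 CPM against 1231 to 1623 in the other 3, and its sum of 8 microglia markers 187 against 46.6 to 56.5. Its sum of 5 neuron markers (Slc17a7, Camk2a, Nrgn, Neurod6 and the synaptic gene Snap25) was 12316 against 14263 to 17363. Without it the difference of Pou3f1 from acute IP was -0.90 (adjusted p = 0.547) and that of Fezf2 -0.55 (adjusted p = 0.597). Inhibitory neuron markers also differed between these groups: the sum of 8 was 1009 to 1373 CPM in chronic and 615 to 952 in acute IP, without overlap, with all 8 log2 differences above 0 and none called. The oligodendrocyte sum in acute IP was 866 to 1223 CPM, below every chronic library. Of its 8 markers 6 had differences above 0 (median 1.04), with none called by edgeR and 3 by DESeq2 (1.29% of all genes). The sum of the 5 neuron markers was 15205 to 20793 CPM in acute IP and overlapped, with 0 of 5 differences above 0 (median -0.15). Replicate 4 was the lowest chronic library for both Pou3f1 and Fezf2, so leaving it out made both differences smaller whatever its glial content. The part of glial and inhibitory RNA in these values was not tested.

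Against healthy IP, the acute differences were 0.49 ± 0.24 for Pou3f1 and 0.48 ± 0.23 for Fezf2, each with an interval that just reached below 0. The chronic difference from healthy IP was -0.59 ± 0.26 for Pou3f1 (interval -1.13 to -0.05, adjusted p = 0.393 by edgeR), opposite in sign to the acute one and with an interval that left out 0. For Fezf2 it was -0.23 ± 0.25 and for Pcp4 -0.09 ± 0.36. Pcp4 stood at 56.7, 22.6, 29.0, 32.0 and 33.3 CPM in acute IP against 66.3, 58.6, 50.3, 53.2 and 34.5 in healthy IP, a difference of -0.60 ± 0.34 (interval -1.30 to 0.10, adjusted p = 0.964). Of the other 6 genes, the acute differences ran from -0.16 for Etv1 to 0.40 for Bcl11b and the chronic ones from 0.01 for Bcl6 to 0.33 for Colgalt2, all within intervals that included 0. Whether the change with EAE differed between IP and input was tested by the interaction, which called 0 of 9 in acute (0.00603% of all genes called) and 0 of 9 in chronic mice (1.03%). At an unadjusted p under 0.05 edgeR gave 0 and 1 of the 9, where 11.5% and 16.5% of all genes were, and DESeq2 called 0 and 0. The 1 was Pou3f1 in chronic mice, with a difference of -0.75 ± 0.30 between the changes of the 2 fractions (adjusted p = 0.147).

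**Figure D3:**
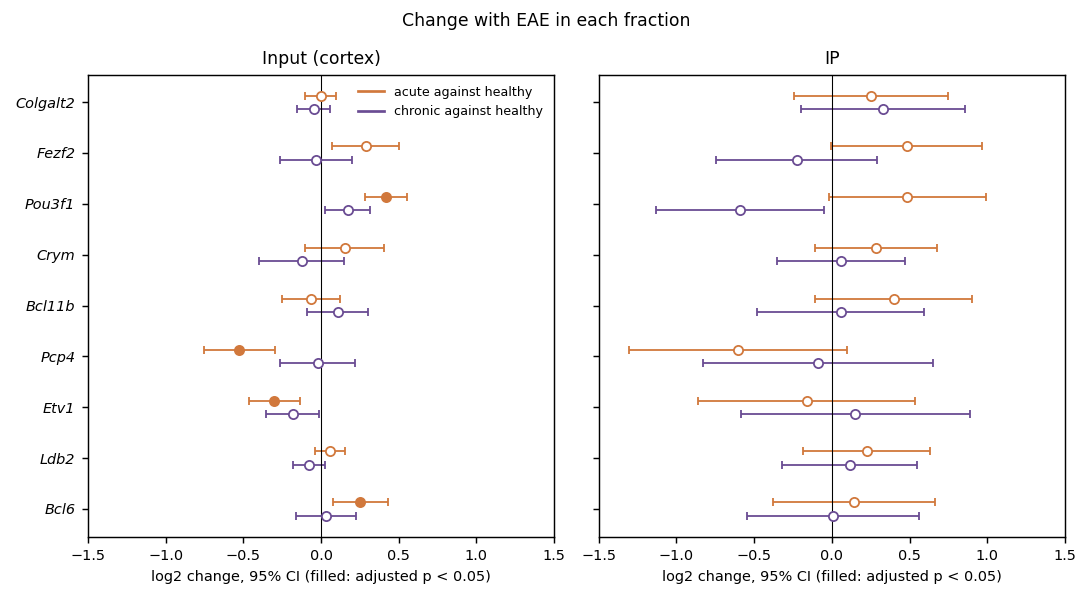
Log2 change of each gene from healthy to acute (orange) and to chronic (purple) mice in input at the left and IP at the right, with 95% confidence intervals, where filled points passed an adjusted p under 0.05. In input 4 acute changes are filled, up for Pou3f1 and Bcl6 and down for Pcp4 and Etv1, and in IP none is, with wider intervals.

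Levels of different genes can be set side by side once divided by exon length, given here as CPM per kilobase (kb) of summed exon. In healthy IP the order was Crym at 110.3, Fezf2 at 91.0, Pcp4 at 82.0, Pou3f1 at 67.2 and Ldb2 at 62.8 CPM per kb, followed by Etv1 at 17.6, Colgalt2 at 16.1, Bcl6 at 12.9 and Bcl11b at 11.7. Neighbours overlapped in their ranges over libraries except at the step from Ldb2 to Etv1, which split the 9 genes into 5 abundant and 4 scarcer ones. The same 5 genes stood above the same 4 in acute and in chronic IP, again without overlap at that step.

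In healthy input the order was Pcp4 at 76.1, Crym at 41.3, Ldb2 at 33.9, Fezf2 at 24.9, Etv1 at 19.1, Pou3f1 at 17.2, Bcl11b at 13.8, Colgalt2 at 12.5 and Bcl6 at 4.43 CPM per kb. Pcp4, Crym and Ldb2 were each apart from the next gene, as was Bcl6 from the rest, and the genes from Fezf2 to Colgalt2 overlapped with their neighbours. Pou3f1 was below Etv1 on average in healthy input only. It was above Etv1 without overlap in acute and chronic input and in IP of every phase. In acute input Pcp4 fell to 52.8 CPM per kb and overlapped with Crym at 45.9, and in chronic input it was apart again at 74.8 against 37.8. The order within each group was the same with DESeq2's size factors as the scaling.

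**Figure D4:**
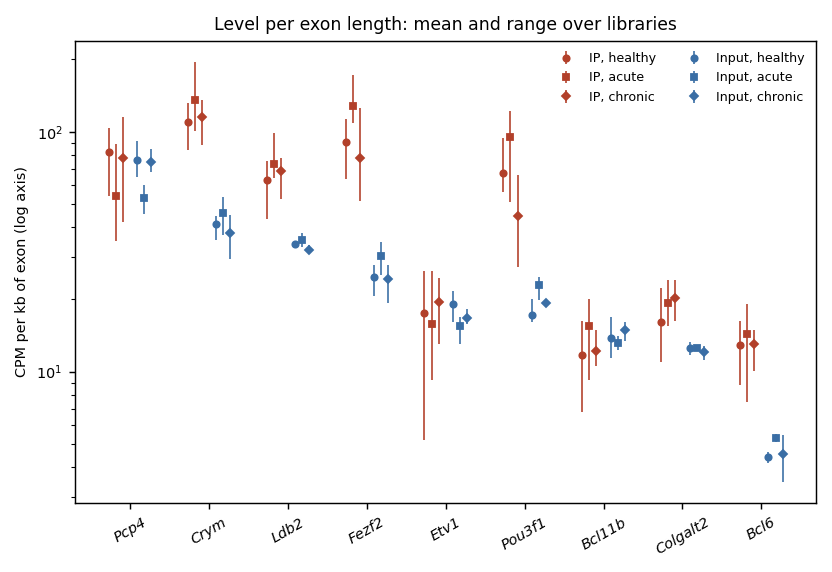
Level of the 9 genes per kb of exon on a log axis, as the mean (symbol) and range (bar) over the libraries of each group, IP in red and input in blue, with genes in the order of healthy input. Pcp4 leads in input and Crym in IP, and Bcl6 is lowest in input at 4.43 in healthy mice.

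The genes also differed in how they varied from library to library. Likeness was measured as the root mean square (RMS) difference of log2 CPM over all 28 libraries, after each gene was centred on its own mean, so that 0 means the same profile. Among the 36 pairs of the 9 genes the closest were Fezf2 and Pou3f1 at 0.28 and Colgalt2 and Ldb2 at 0.29, and the farthest were Fezf2 and Etv1 at 1.15. Of 9320 genes with a mean of at least 10 CPM, the nearest to Fezf2 was Pou3f1, ahead of Tkfc at 0.33, Slc6a7 at 0.33, Thop1 at 0.34 and Eef1a2 at 0.36, where the median gene stood at 1.23. Nearest to Colgalt2 were Elmo2 at 0.17, Usp14 at 0.18, Lztr1 and Fem1a at 0.19 and the synaptic gene Snap25 at 0.19, where the median was 0.67. These values rest on libraries that share fraction, phase and depth. Within IP alone Fezf2 and Pou3f1 stood at 0.35, and within input at 0.20. They were the closest pair of the 9 genes in neither fraction alone. Within IP Colgalt2 and Ldb2 were closer, at 0.33, and within input Crym and Bcl6 were, at 0.17.

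Other genes of subcerebral neurons behaved like the enriched ones in part. Of 16 such genes 6 were higher in healthy IP, 7 in acute and 7 in chronic, against 7.2%, 8.56% and 8.74% of all genes. The medians of the list were 0.62, 0.83 and 0.53. In healthy mice Vat1l (156 ± 27.7 CPM in IP, 75.6 ± 15.8 in input, SD, n = 5), the growth factor binding protein Igfbp4 (189 ± 13.2 and 91.6 ± 3.68), the transcription regulator Tox (74.2 ± 8.50 and 33.1 ± 3.35) and the cadherin Cdh22 (56.7 ± 12.8 and 28.3 ± 1.36) had log2 ratios of 1.05, 1.05, 1.16 and 1.001. The largest adjusted p of these 4 was 0.000792 by edgeR. Slco2a1, named after its values were seen as the 1 gene of the list that was lower, had 0 counts in all 5 healthy IP libraries. It was scarce in healthy input too, at 1.19 CPM (13 to 32 counts). With 3 counts in the 5 libraries together as the floor it was at least 30.6-fold lower than input, a bound for counting error alone. In acute IP 3 of 5 libraries were at 0 and in chronic IP 3 of 4. Its means there, 1.14 and 1.22 CPM, were near those of acute and chronic input, 1.22 and 1.44.

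A further list of layer 5 genes did not follow. Of its 8 genes 0 were higher in healthy IP by edgeR and by DESeq2, with 1 higher and 3 lower at an unadjusted p under 0.05. Of all genes edgeR called 7.2% higher and 14.4% lower there, and 29.7% had such an unadjusted p. By edgeR 1 was lower (2 by DESeq2), the forkhead factor Foxp1 (72.1 ± 13.4 CPM in IP, 144 ± 12.3 in input, SD, n = 5, log2 ratio -1.003 ± 0.24, adjusted p = 0.00218 by edgeR). The median of the list was -0.61, below that of all genes. Kcnn2, named after its values were seen, was the 1 gene higher in acute and in chronic IP, where 8.56% and 8.74% of all genes were. Of the 8 genes 0 were lower in acute IP and 2 in chronic IP, against 10.1% and 20% of all genes. Foxp1 was also lower in acute input (111 ± 10.3 CPM, log2 change -0.38 ± 0.07, adjusted p = 0.00135).

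Among 20 regulators of cortical neuron identity, 1 was higher and 2 lower in healthy IP, where 7.2% and 14.4% of all genes were. The median of the list was -0.27, near that of all genes. Neurod2, a factor of excitatory neurons, was higher (254 ± 73.9 CPM in IP, 174 ± 16.8 in input, SD, n = 5, log2 ratio 0.55, adjusted p = 0.0267 by edgeR). The upper-layer factor Cux2 (47.6 ± 23.2 and 84.8 ± 6.79, log2 ratio -0.83, adjusted p = 0.00856) and the layer 4 factor Rorb (27.6 ± 8.28 and 54.8 ± 5.66, log2 ratio -0.99, adjusted p = 0.00882) were lower. In acute IP 1 of the 20 was higher and 2 lower (8.56% and 10.1% of all genes). In chronic IP 2 were higher and 7 lower (8.74% and 20% of all genes).

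In acute input genes of these lists were called in both directions, where 11.1% of all genes were called higher and 8.59% lower. Of the subcerebral list 3 of 16 were higher and 1 lower, led by Igfbp4, which rose from 91.6 ± 3.68 to 139 ± 10.1 CPM (SD, n = 5, log2 change 0.60 ± 0.05, adjusted p = 1.85e-07 by edgeR), and S100a10, which rose from 36.3 ± 1.94 to 43.5 ± 2.94 CPM (0.26 ± 0.06, adjusted p = 0.00349). Of the regulators 1 of 20 was higher and 4 lower, led by Rorb, which fell from 54.8 ± 5.66 to 35.5 ± 2.76 CPM (-0.63 ± 0.11, adjusted p = 0.000561), and Sox5, which restrains Fezf2 in deep-layer neurons and fell from 48.6 ± 4.70 to 37.6 ± 3.21 CPM (-0.37 ± 0.07, adjusted p = 0.000886). The medians of the 3 lists were -0.08, -0.15 and -0.06, against 0.06 for the 9 genes and -0.01 for all genes.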

How the data were processed

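Counts per gene were used as the authors deposited them: per the file headers they were made with featureCounts 1.5.1 on exons grouped by gene, for read pairs and without strand, against Ensembl release 79 of GRCm38. The submitters' processing notes name STAR 2.4 and DESeq2. The header names 36 alignment files, of which 28 columns are held, each matched to a library by its description. Symbols were found for 97.3% of genes, and all 113 listed genes.

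Computed here with R 4.3.3: edgeR 4.0.16 robust quasi-likelihood F tests after filterByExpr (minimum count 10, minimum total 15) and TMM scaling, with Benjamini-Hochberg adjustment over all genes tested. IP and input were fitted apart for phases (13914 and 16381 genes) and together across fractions (16580). The alternatives were DESeq2 1.42.0, its size factors, no filter, a replicate block, 1 fit of all libraries, and leaving out libraries. Log CPM for likeness used a prior count of 2. All 9 genes were reported, with up to 4 genes of each further list called in healthy IP and 2 called in acute input by smallest adjusted p, and 5 nearest genes each to Colgalt2 and Fezf2. The genes and lists were chosen with earlier results of these data known. The tests were tried on simulated data first. Replicate numbers were not treated as pairs. No 2 libraries of a group agreed within sampling noise. Positions are those of the deposited table, and figures were drawn with matplotlib 3.10.9. A T cell marker is not reported here.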

Additional observations from a re-analysis of the deposited data

Results flagged for a closer look

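Of 54 groups of libraries examined (9 genes in 6 groups), 3 held a library far from the others, where chance alone gives about 1 in 20. In healthy mice Pou3f1 was high in replicate 2 of both fractions, at 363 CPM in IP against 216 to 255 in the other 4 and at 77.3 CPM in input against 62.0 to 64.0. Without healthy replicate 2 the IP to input ratio of Pou3f1 was 1.87 (adjusted p = 1.03e-06 by edgeR) and its acute change in input 0.48 (adjusted p = 1.81e-05). Ldb2 was high in acute IP replicate 1, at 246 CPM against 160.1 to 173, and without acute replicate 1 its acute ratio was 0.95 (adjusted p = 1.42e-05).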

How the results depend on the processing

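Bcl6 in acute input and Pou3f1 in chronic against acute input depended on single libraries, and the IP differences of Pou3f1 and Fezf2 were called or not depending on the fit. The labels do not say what a replicate number shares. Deviations of same-numbered IP and input libraries correlated at -0.0086 to 0.143, over 0.1 in 2 of 14, while 10 of 14 IP libraries correlated best with the input of their own number, a hint of pairing from the data. The replicate block changed no call among the 9 genes. The calls of Fezf2, Pou3f1, Crym, Ldb2 and Bcl6 in IP against input held under every alternative run. The spread between IP libraries limits what can be detected between phases.

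Values that were not called changed sign. Etv1 in acute IP against input was -0.0082 with size factors, -0.0088 with DESeq2 and -0.044 with the replicate block, which also gave Pcp4 -0.033 in acute and -0.045 in chronic mice and Bcl6 0.022 for the chronic IP minus input change. Without the 4 IP libraries poorest in genes, IP against input was 0.15 for Etv1 in healthy and -0.086 for Pcp4 in acute mice. The IP minus input change was then 0.30 (acute) and 0.13 (chronic) for Bcl6, 0.042 for Fezf2 and -0.0080 for Etv1 (chronic). In IP, acute against healthy was -0.042 for Ldb2. Chronic against healthy was 0.0034 for Fezf2, -0.20 for Etv1 and -0.062 for Ldb2, and chronic against acute -0.043 for Colgalt2 and -0.050 for Etv1. The cause was not tested.

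Counts of all genes called moved more. For the chronic IP minus input change, 170 became 47 with no filter, 958 with DESeq2, 28 with the replicate block and 1823 without the 4 libraries. For the acute one, 1 became 363 with DESeq2, 0 with the replicate block and 1364 without the 4 libraries. IP against input in healthy mice went from 3587 to 5769 without the 4. In IP, 9 for acute against healthy became 123 with DESeq2, 2 with the replicate block, 1611 with all libraries in 1 fit and 1 without the 4. The 26 for chronic against healthy became 54 with size factors, 287 with DESeq2, 15 with the replicate block, 2550 in 1 fit and 40 without the 4. The 0 for chronic against acute became 180 with DESeq2 (1 of the 9 genes) and 1762 in 1 fit (2 of the 9). In input, 449 for chronic against healthy became 706 with DESeq2 and 0 in 1 fit, 3230 for acute against healthy became 20 (0 of the 9), and 1259 for chronic against acute became 0 (0 of the 9).

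With each library left out in turn (both fractions of a number for IP against input), 725 values for single genes kept their sign and their side of the threshold, 16 lost a call (9 for Bcl6 and 6 for Pou3f1 in input, 1 for Colgalt2), 5 gained one, and 55, none of them called, changed sign. IP against input ran from -0.021 to 0.20 for Pcp4 and -0.27 to 0.13 for Etv1 in healthy mice, 0.54 to 0.70 for Colgalt2, -0.26 to 0.18 for Pcp4 and -0.19 to 0.18 for Etv1 in acute mice, and -0.14 to 0.27 for Pcp4 in chronic mice. The acute IP minus input change ran from 0 to 287 genes, and from -0.097 to 0.21 for Crym, -0.37 to 0.071 for Pcp4, -0.096 to 0.31 for Etv1 and -0.23 to 0.071 for Bcl6. The chronic one ran from 43 to 148 genes, and from -0.52 to 0.021 for Fezf2, -0.27 to 0.10 for Bcl11b, -0.25 to 0.16 for Pcp4 and -0.12 to 0.19 for Bcl6. In IP, acute against healthy ran from 1 to 50 genes and from -0.40 to 0.037 for Etv1. Chronic against healthy ran from 9 to 43 genes, and from -0.024 to 0.17 for Crym, -0.087 to 0.21 for Bcl11b, -0.34 to 0.12 for Pcp4, -0.075 to 0.34 for Etv1 and -0.11 to 0.11 for Bcl6. Chronic against acute ran from -0.025 to 0.17 for Colgalt2 and -0.18 to 0.028 for Ldb2. In input, acute against healthy ran from -0.024 to 0.016 for Colgalt2, 0.23 to 0.35 for Fezf2, -0.13 to 0.025 for Bcl11b and 0.23 to 0.27 for Bcl6. Chronic against healthy ran from 250 to 447 genes, and from -0.10 to 0.057 for Fezf2, -0.085 to 0.058 for Pcp4 and -0.071 to 0.14 for Bcl6. Chronic against acute ran from 784 to 1188 genes, with 1 to 3 of the 9 called, and from -0.39 to -0.23 for Fezf2, -0.29 to -0.22 for Pou3f1 and -0.33 to -0.11 for Bcl6.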

Other observations

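In replicates 1 and 4 of chronic IP, Fezf2 stood at 290.5 and 118 CPM, Pou3f1 at 255 and 105, Colgalt2 at 102 and 69.1, and Pcp4 at 73.6 and 26.9, while Bcl6 stood at 86.7 and 95.002. In the input libraries with these numbers Bcl6 stood at 23.3 and 27.9 CPM, Fezf2 at 56.3 and 44.7, Colgalt2 at 54.1 and 47.3 and Pcp4 at 54.5 and 48.9. Pou3f1, at 72.7 and 74.3 CPM in input, did not follow its order in IP. Nor did Crym, at 402 and 299 CPM in IP and 99.9 and 126 in input. Input replicate 4 also had the highest chronic sums of oligodendrocyte markers (3667 CPM against 2470 to 2706) and microglia markers (164 CPM against 71.8 to 90.3).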
